A study of Rattus norvegicus with 113 samples.

Results

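Gene expression in the cortex of sham-injured rats was compared with that of naive rats at the 12 month interval, with 1 Agilent array per rat and 4 rats per group, chosen by their titles. These are 8 of the 113 arrays of a rat series on traumatic brain injury (TBI), which sampled hippocampus and cortex of naive, sham-injured and TBI rats at intervals from 24 hr to 12 months. All rats were adult male Sprague-Dawley rats at the start. Naive rats received neither anesthesia nor handling. Sham-injured rats were anesthetized with isoflurane, ventilated, and given the scalp incision, the hole drilled through the skull to the right of the midline and the bonded hub that TBI rats also received, but no fluid pulse. The 4 TBI rats of the same interval had the pulse in addition, which the labels call moderate and the methods severe. The cortex was a small piece cut from the region near the injury. The comparison asks how the cortex of rats that went through anesthesia and craniotomy differed, at this late interval, from that of rats left alone.

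A craniotomy opens the skull while leaving the dura in place, and even without a percussion pulse it can disturb the vessels, meninges and glia beneath the opening. Inhaled anesthetics act on inhibitory and excitatory synapses. Cortex holds excitatory neurons, inhibitory interneurons, astrocytes, myelin-forming oligodendrocytes, microglia and the cells of blood vessels, and each of these expresses genes by which it can be followed in a bulk sample. In such a sample, fewer cells of a type and less RNA per cell cannot be told apart.

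The 4 naive arrays lay on 1 slide, beside arrays of TBI rats of 6 months, and the 4 sham arrays on another slide, beside the TBI arrays of 12 months. The naive arrays lay in row 2 of their slide and the sham arrays in row 1 of theirs. Slide, row and group therefore cannot be told apart in this comparison. The share of probes that the scanner software called well above background was 50.8% to 55.5% in naive arrays, 57.8% to 59.2% in sham arrays and 51.9% to 58.3% in TBI arrays, so the naive and sham ranges did not overlap. The median background intensity was 52 to 67.5 in naive and 49 to 51 in sham arrays, and no spot was saturated. Defining markers of cortical neurons were present at similar summed levels in both groups (2882 to 3532 in naive and 2770 to 3232 in sham arrays, linear scale with the array median as 1), and none of the 7 passed the test. Levels below are log2 of the processed intensity minus the array median, a difference is sham minus naive on that scale with its standard error (SE), and adjusted p-values come from limma with Benjamini-Hochberg adjustment over all 25219 tested probes.

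With an adjusted p below 0.05 as the threshold, 1098 of these probes (4.35%) passed. In sham rats 1027 probes (4.07% of those tested) were higher and 71 (0.282%) lower. At an unadjusted p under 0.05 there were 4554. The median difference was 0.61 among the higher probes, a 1.52-fold change, and -0.46 among the lower ones, a 1.37-fold change. A difference of at least 1 was reached by 173 higher and 2 lower probes. Complete separation of the 4 sham from the 4 naive arrays was seen for 2992 probes (11.9%), and 1080 of the 1098 called probes were among them. Higher calls were fewest among the brightest probes: with the tested probes split into 4 equal classes from the dimmest to the brightest, 326, 309, 251 and 141 were higher and 13, 17, 17 and 24 lower. On 210 of the higher probes fewer than 4 naive arrays were well above background, and on 98 no naive array was. These 210 entered the test only through the sham group. The predominance of one direction depended on how arrays were scaled. It was 93.5% of the called probes with the array median, 77.1% of 1105 with the 75th percentile and 80.2% of 1078 in the table deposited by the authors. After normexp background correction with an added offset of 50 and quantile normalization it was 74.0% of 1530. Without a filter on dim probes, 7682 were called and 18.9% of them were higher in sham rats. Among probes well above background on every array of both groups, 934 were called and 91.65% of them were higher.

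**Figure D1:**
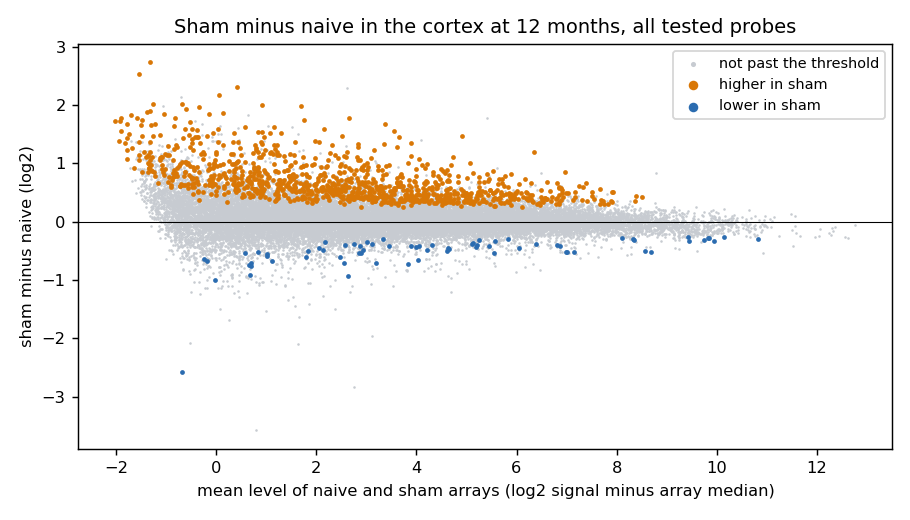
Each point is 1 of the 25219 tested probes, with the mean level of the naive and sham arrays on the x axis and the difference sham minus naive on the y axis (both log2). The 1027 probes higher in sham rats (orange) reach furthest from 0 at low levels, and the 71 lower probes (blue) are spread over the whole range.

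The number of calls rested on single arrays. Without sham replicate 2 limma called 599 probes and without sham replicate 4 it called 620, and the highest count was 1180, without naive replicate 2. Of the called genes followed one by one below, 37 were well above background on all 8 arrays. Of these 37, 12 still passed without sham replicate 2, 15 without naive replicate 1, 16 without naive replicate 3, sham replicate 1 or sham replicate 4, 19 without sham replicate 3, 20 without naive replicate 4 and 25 without naive replicate 2. The 9 that passed whichever array was left out are named as such, and the others carry the number of the 8 such fits in which they passed. The normexp alternative made many values smaller. It joined background correction, an added offset of 50, quantile normalization and median spot signals, and the part of each step was not tested. An added offset makes the log2 differences of dim probes smaller by construction. After normexp the differences of 25 of 54 called genes shrank by over 1.5 times, 8 of them on probes well above background on all 8 arrays. Of the 54, 16 no longer passed (limma, adjusted p from 0.051 for Insig2 to 0.463 for Rpl7). Among those 16 were Stat3, Cd3d, Epha4, Hnrnpd, Il1r1, S100b, Slco1a4, Ftl1, Rplp0 and Ccl22.

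Counted as genes, each by its brightest probe, 255 of 11445 (2.23%) were higher and 44 (0.384%) lower, and the median difference of all genes was 0.01. The largest increases fell on dim probes. Cox7c, a small subunit of cytochrome c oxidase, stood at -1.71, -2.38, -0.89 and -1.78 in naive rats and at 0.03, 0.52, 0.01 and 0.78 in sham rats. The groups did not overlap, and the difference was 2.03 ± 0.27 (SE, adjusted p = 0.00108), although only 1 naive array was well above background and the difference was 0.71 after normexp. Sfswap, a splicing regulator, likewise went from between -1.14 and -0.54 in naive to between 0.32 and 0.76 in sham rats (1.47 ± 0.15, adjusted p = 0.000149), again with 1 naive array above background and a difference of 0.69 after normexp. The probes of Cox7c and Sfswap entered the test only through the sham group, so their passing is not read as support. The differences with the smallest p-values belonged to a pair of gene copies measured on all arrays. Cox6c-ps1, annotated as a pseudogene of another cytochrome c oxidase subunit, read 0.85, 0.71, 0.96 and 1.03 in naive and 2.47, 2.61, 2.58 and 2.86 in sham rats (3.34-fold, adjusted p = 1.19e-05). Rpl17l5, a copy of the gene for ribosomal protein L17, read 0.17, 0.13, 0.37 and 0.32 in naive and 1.48, 1.55, 1.55 and 1.76 in sham rats (2.52-fold, 1.33 on the log2 scale and 0.79 after normexp, adjusted p = 1.19e-05). The spread within each group was far smaller than the gap between the groups. Both have near-identical relatives in the genome, so the transcript that these probes report is uncertain, and both passed whichever array was left out and in the 10 other alternatives.

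The other increases named by size came from probes at the edge of detection. For 10 of the 15 genes with the largest positive difference no naive array was well above background, so that only a lower bound of the fold can be given, with the dimmest detected probes as the floor. The bound was at least 2.75-fold for Polr1e, a subunit of RNA polymerase I, at least 2.05-fold for Snai3, a transcriptional repressor of the Snail family, and at least 1.87-fold for Tsfm, an elongation factor of mitochondrial translation. It was at least 1.76-fold for Ptges3l1, at least 1.61-fold for Brap, a ubiquitin ligase that acts on Ras signaling, at least 1.26-fold for the aldo-keto reductase Akr1b10, at least 1.21-fold for the olfactory receptor Or4b1 and at least 1.11-fold for the histone methyltransferase Ash1l. No bound above 1 could be given for the transcription factor Sox9 and the olfactory receptor Or4f61b, which also has close relatives. The probes of these 10 genes entered the test only through the sham group, so their passing is not read as support, and their adjusted p-values lay between 0.000621 for Tsfm and 0.0457 for Snai3. After normexp the differences of Brap and Sox9 were 0.48 and 0.38. Lrfn5, a synaptic adhesion molecule, was 1.44 ± 0.29 higher (adjusted p = 0.0174), with 1 naive array above background, and 0.58 higher after normexp. Its probe also entered the test only through the sham group.

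Genes measured by more than 1 probe gave a mixed picture. Among the 389 genes with a called and named probe, 152 had another tested probe, and in 11 of them another probe was called too. In 96 of the 152 all tested probes lay on the same side of 0. Of the 30 genes named by size, 10 had another tested probe, and in 6 of these another probe was on the other side of 0 or within 0.2 of it. The probe that placed Sox9 among the increases differed by 1.78 ± 0.22, while its 3 other probes, all brighter, differed by -0.11, -0.00 and -0.18. The other probe differed by -0.04 for Tsfm, 0.08 for Brap, 0.02 for Ash1l and -0.01 for Polr1e. The named probes of these 5 genes were above background on no naive array and have no exact size. The other probe of Lrfn5 was also higher, by 0.44, without passing (adjusted p = 0.0872). In 6 of the 15 increases the probe named was not the gene's brightest.

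**Figure D2:**
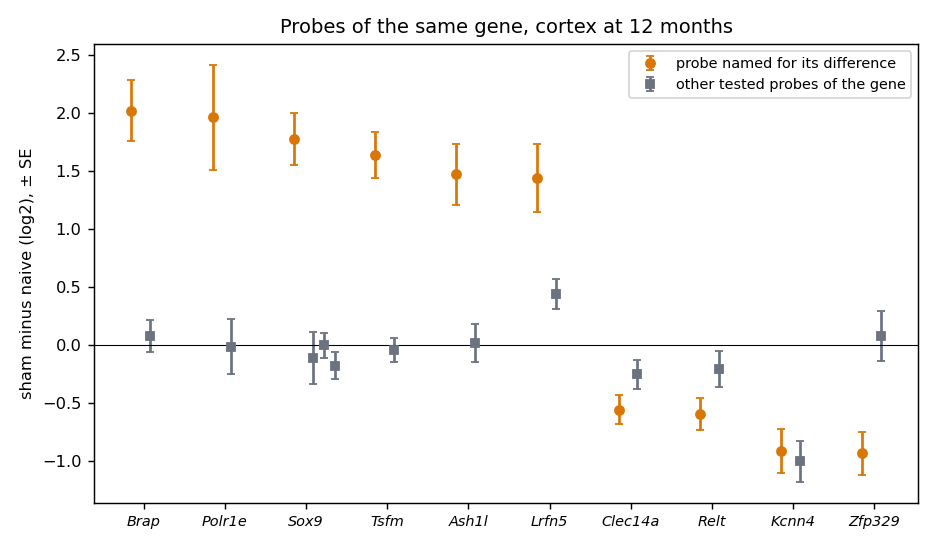
For the 10 genes named by size that have another tested probe, the difference sham minus naive (log2, ± SE) of the named probe is shown as an orange circle and those of the other probes as grey squares. Only for Kcnn4 does the other probe show a difference as large, at -1.001 against -0.91, and the circles of Sox9, Tsfm, Brap, Ash1l and Polr1e are not exact sizes, since no naive array was well above background.

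Apart from Retnlg, the 15 decreases named by size were below 1 on the log2 scale and were measured on probes well above background on all 8 arrays. Kcnn4, a calcium-activated potassium channel of microglia and blood cells, read 0.86, 1.63, 0.73 and 1.36 in naive and 0.03, 0.33, 0.10 and 0.46 in sham rats (1.88-fold lower, -0.91 ± 0.19, adjusted p = 0.0215), and its second probe differed by -1.001 ± 0.178 (adjusted p = 0.00805). All sham rats were below all naive rats on the first probe, which passed in 4 of the 8 fits that leave out 1 array. Mapk12, a p38 stress kinase, read 3.67, 3.41, 3.70 and 3.41 in naive and 2.69, 2.79, 3.03 and 2.84 in sham rats (1.64-fold lower, adjusted p = 0.00727). Havcr2, the immune checkpoint receptor TIM-3, which microglia express, read 2.07, 1.92, 2.36 and 2.06 in naive and 1.28, 1.61, 1.54 and 1.53 in sham rats (1.53-fold lower, adjusted p = 0.00725). These 2 decreases passed whichever array was left out and in all 10 of the other alternatives. Retnlg, a resistin-like protein of neutrophils, had the largest decrease at -2.57 ± 0.64 (adjusted p = 0.044), but its naive rats ranged from -0.68 to 1.74, only 1 sham array was above background, and the difference was -1.06 after normexp. Its probe entered the test only through the naive group. Zfp329, a zinc finger gene, was 1.91-fold lower (adjusted p = 0.0163, 7 of 8 fits), although its other probe differed by 0.08. The remaining decreases named by size lay between -0.75 for the RNA-binding protein Ro60 (-0.50 after normexp) and -0.53 for the ganglioside GM3 synthase St3gal5. They took in the leukotriene C4 synthase Ltc4s (-0.71), the Cdc42 effector Cdc42ep5 (-0.72), the TNF receptor family member Relt (-0.59), the endothelial lectin Clec14a (-0.55) and the amino acid transporter Slc38a5, each with 4 sham rats below 4 naive rats. Ro60 passed in 4 of the 8 fits, Ltc4s, Relt, Clec14a and Slc38a5 in 2, Cdc42ep5 in 1 (adjusted p up to 0.139) and St3gal5 in none (up to 0.107). The other probes of Relt and Clec14a differed by -0.20 and -0.25 and did not pass.

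Lists of genes for cell types and pathways covered 987 tested genes, of which 17 (1.72%) were higher and 11 (1.11%) lower, against 2.23% and 0.384% of all genes. Of the 49 lists, 30 held no called gene. Each list gene counts by its brightest probe, and some called ones have other probes whose values are not given here. Among these are Grm7, Epha4, Dbp and Ftl1 with 2 probes each on the array, and Cacna1c and Ccl22 with 3. Only 8 list genes were called without sham replicate 2, 10 without sham replicate 1 or naive replicate 3, 11 without sham replicate 4, 12 without naive replicate 1 and 17 without naive replicate 4.

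Among inhibitory neuron genes, 2 rose. Sst, the neuropeptide somatostatin that marks a class of cortical interneurons, read 5.43, 5.64, 5.06 and 5.20 in naive and 5.88, 6.15, 5.93 and 6.31 in sham rats. Every sham rat was above every naive rat, and the difference of 0.73 ± 0.14 (1.66-fold, adjusted p = 0.0103) passed in all 8 fits that leave out 1 array and all 10 other alternatives. Dlx1, a homeobox gene of interneuron development and maintenance, read 4.14, 4.28, 4.13 and 4.25 in naive and 4.43, 4.58, 4.50 and 4.56 in sham rats (1.24-fold, adjusted p = 0.0384, 1 of 8 fits). Of the 19 tested interneuron genes these 2 passed, 15 lay above 0 and the list median was 0.13. The per-array medians of that list overlapped between the groups, from -0.21 to 0.23 in naive and from -0.02 to 0.23 in sham rats. Summed interneuron markers were 605 to 818 in naive and 635 to 825 in sham arrays. None of the 20 tested general neuron and synapse genes passed. In the list of neuropeptides Sst was the 1 called gene of 27, and 20 of them lay above 0 (median 0.20).

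Single receptors of transmitters rose. Grm7, an inhibitory presynaptic glutamate receptor, read 2.56, 2.59, 2.47 and 2.41 in naive and 2.90, 2.97, 2.90 and 2.95 in sham rats (1.34-fold, adjusted p = 0.00468), with a narrow spread in both groups, and it passed in all 8 fits and 10 alternatives. It was the 1 called member of 34 glutamate and GABA receptor genes. Cnr1, the cannabinoid receptor found on interneuron terminals, read 2.21, 2.44, 2.12 and 1.73 in naive and 2.80, 2.84, 3.13 and 3.10 in sham rats (1.79-fold, adjusted p = 0.0338), and Drd5, a dopamine receptor, was 1.51-fold higher (adjusted p = 0.0366). These were the 2 called of 38 monoamine, cholinergic and peptide receptor genes, and they passed in 1 and 2 of the 8 fits. The probe of Drd5 was well above background on 3 naive arrays and entered the test only through the sham group. Its difference of 0.59 was 0.33 after normexp, and its passing is not read as support. Cacna1c, the pore of a voltage-gated calcium channel, was 1.54-fold higher (adjusted p = 0.0368, 1 of 8 fits) and was the 1 called of 24 sodium and calcium channel genes. Epha4, a receptor of axon guidance, was 1.41-fold higher (adjusted p = 0.0255, 3 of 8 fits), 1 of 35 in its list. No gene of 26 voltage-gated potassium channels or 24 immediate early genes passed.

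**Figure D3:**
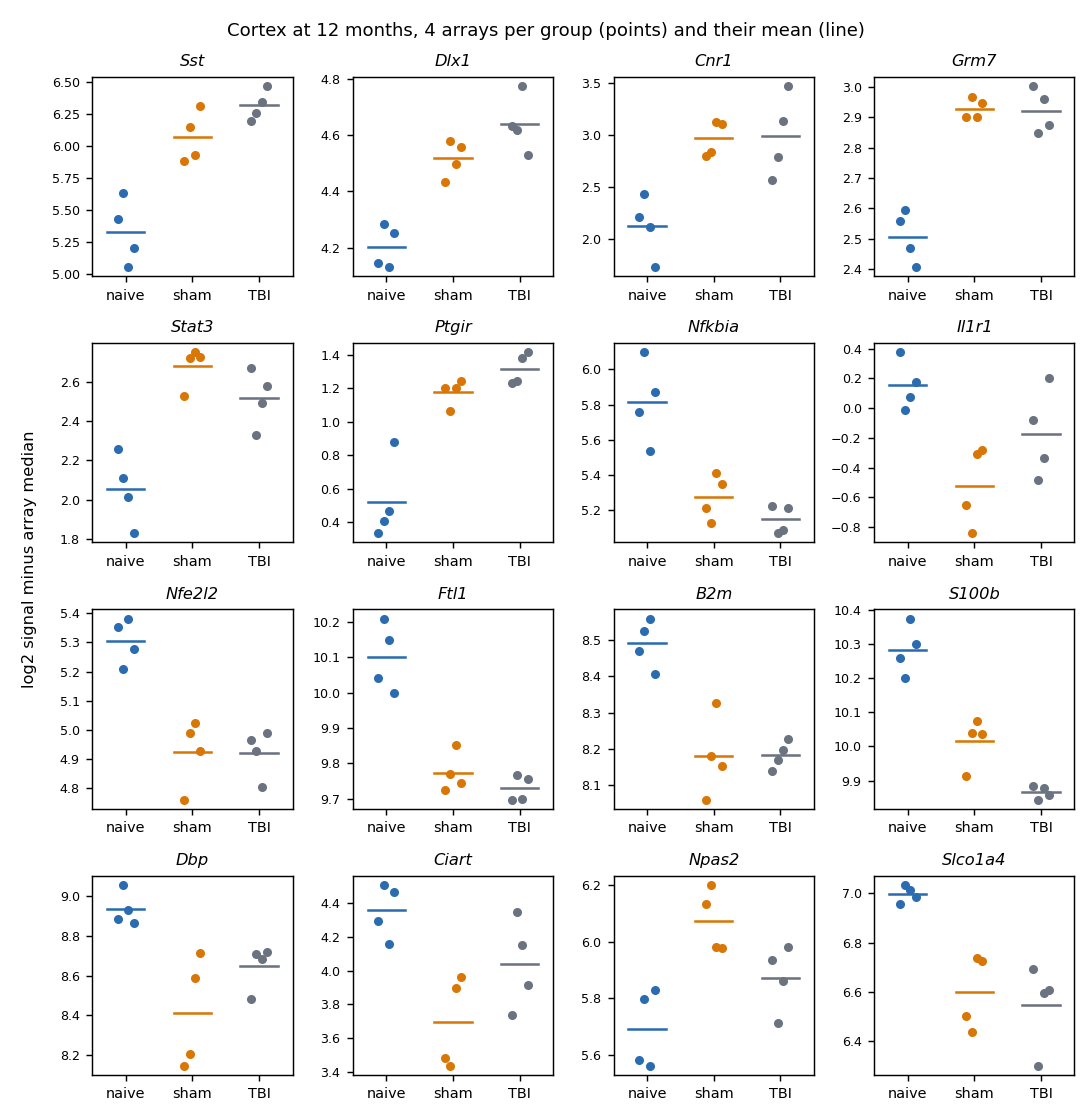
Levels (log2 intensity minus array median) of 16 genes in each naive, sham and TBI array of the cortex at 12 months, with the group mean as a line. In all 16 panels the 4 sham arrays lie on 1 side of the 4 naive arrays, and the y axes differ between panels and do not start at 0.

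Genes of immune signaling moved in both directions. Stat3, the transcription factor downstream of interleukin-6 type cytokines, read 2.26, 2.11, 2.01 and 1.83 in naive and 2.53, 2.72, 2.75 and 2.73 in sham rats. The difference was 0.63 ± 0.11 (1.55-fold, adjusted p = 0.00633) and passed whichever array was left out, but after normexp it was 0.28 (adjusted p = 0.0911). Nfkbia, the inhibitor that holds NF-kB in the cytoplasm, read 5.76, 6.10, 5.54 and 5.87 in naive and 5.21, 5.13, 5.41 and 5.35 in sham rats (1.45-fold lower, adjusted p = 0.0217, 5 of 8 fits). The interleukin-1 receptor Il1r1 was 1.60-fold lower (-0.68 on the log2 scale and -0.33 after normexp, adjusted p = 0.0441) and passed in none of the 8 fits. These 3 were the called members of 21 genes of cytokines, NF-kB and Toll-like receptors. Ptgir, the prostacyclin receptor, read 0.33, 0.41, 0.46 and 0.88 in naive and 1.20, 1.06, 1.20 and 1.24 in sham rats (1.58-fold, adjusted p = 0.00665, all 8 fits and 10 alternatives), although its difference of 0.66 was 0.35 after normexp, and was the 1 called of 30 genes of vascular tone. Cd3d, a T cell receptor component, read 0.42, 0.53, 0.49 and 0.55 in naive and 0.97, 0.96, 0.77 and 1.04 in sham rats (1.35-fold, adjusted p = 0.0121, all 8 fits). Its difference of 0.44 passed in 8 of the 10 other alternatives and was 0.18 after normexp (adjusted p = 0.104). The other called T cell gene of 7 tested, Cd8b, was not well above background in any naive array and entered the test only through the sham group (adjusted p = 0.025). Ccl22, a chemokine that attracts T cells, was 1.56-fold higher (adjusted p = 0.0338, 3 of 8 fits), with 1 naive array well above background, and was the 1 called of 14 chemokine genes. Its probe, too, entered the test only through the sham group. B2m, the invariant chain of MHC class I, was 1.24-fold lower (adjusted p = 0.0355, 2 of 8 fits), and 11 of 14 MHC class I genes lay below 0.

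Microglial and complement genes did not pass. Of 20 microglia and macrophage genes 16 lay below 0, with a median of -0.17 and no called member. C1qb read 7.14, 6.79, 7.31 and 7.03 in naive and 6.76, 6.97, 6.84 and 6.80 in sham rats, so that the groups overlapped (-0.23 ± 0.11, adjusted p = 0.322). The homeostatic marker Tmem119 differed by -0.38 ± 0.15 (adjusted p = 0.201). Among 20 complement genes, 8 MHC class II genes, 23 interferon response genes and 14 reactive astrocyte genes no member was called. S100b, a calcium-binding protein of astrocytes, read 10.26, 10.20, 10.38 and 10.30 in naive and 9.91, 10.04, 10.07 and 10.04 in sham rats (1.20-fold lower, adjusted p = 0.0431, 1 of 8 fits). It was the 1 called of 18 astrocyte genes, 14 of which lay below 0.

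Most vessel genes had lower values in sham rats, and 1 of them passed. In the list of endothelial and pericyte genes 19 of 21 lay below 0, against 5570 of 11445 genes, and the median was -0.28. The median deviation of the list from the naive mean was -0.05 to 0.08 in naive and -0.38 to -0.16 in sham arrays, so the groups did not overlap. Single genes separated the groups in 1111 of 11445 cases. Slco1a4, an organic anion transporter of the blood-brain barrier, read 6.96, 7.04, 7.02 and 6.99 in naive and 6.50, 6.44, 6.74 and 6.72 in sham rats (1.32-fold lower, adjusted p = 0.0461, 1 of 8 fits) and was the 1 called member. The tight junction gene Cldn5 read 7.30, 7.27, 7.44 and 7.41 in naive and 6.93, 7.02, 7.15 and 7.19 in sham rats (-0.28 ± 0.08, adjusted p = 0.061) and passed in 6 of the 10 other alternatives (adjusted p down to 0.021). Pecam1 (-0.34, adjusted p = 0.182) and Flt1 (-0.27, adjusted p = 0.0878) also separated the groups without passing, and Flt1 passed in 1 alternative. The summed level of these 3 markers was 185 to 208 in naive, 149 to 172 in sham and 150 to 160 in TBI arrays. The summed blood markers were 1124 to 1649 in naive and 831 to 980 in sham arrays, and Hbb differed by -0.57 ± 0.23 (adjusted p = 0.206). The list of 10 tested blood genes had a median of -0.46 and no call, with 6 below and 4 above 0. The part of blood in the vascular values was not tested.

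Myelin and meningeal genes varied widely among the sham rats, and none passed. Of 22 oligodendrocyte and myelin genes 21 lay below 0 (median -0.32) and none was called. Mbp, myelin basic protein, read 11.52, 11.68, 12.08 and 11.65 in naive and 11.41, 11.71, 11.29 and 10.81 in sham rats, which overlap (-0.43 ± 0.24, adjusted p = 0.389). By array the list deviated from the naive mean by -0.22 to 0.43 in naive and by -0.91 to 0.31 in sham rats. Without 1 array its median ranged from -0.54 to -0.12. Among 18 meningeal and fibroblast genes 17 lay below 0 (median -0.44), none was called, and without 1 array the median ranged from -0.70 to -0.11. The array medians ran from -0.27 to 0.33 in naive and from -1.33 to 0.32 in sham rats. Lum, the matrix proteoglycan lumican, came closest, with 2.22, 1.39, 1.62 and 1.71 in naive and 0.08, 0.33, 0.93 and 1.31 in sham rats (-1.07 ± 0.30, adjusted p = 0.0739, called in 2 of the 10 alternatives). Ttr, the transthyretin of choroid plexus, stood at 10.21 in sham replicate 1 and between 4.60 and 5.35 in the other sham rats, against 3.82 to 5.14 in naive rats. Summed choroid plexus markers accordingly reached 1195 in that 1 array and were 14.5 to 36.1 in naive arrays. The summed oligodendrocyte markers were 3955 to 6094 in naive and 2423 to 4826 in sham arrays, and the meningeal ones 1920 to 3033 and 1033 to 2300. The ranges overlapped in both.

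**Figure D4:**
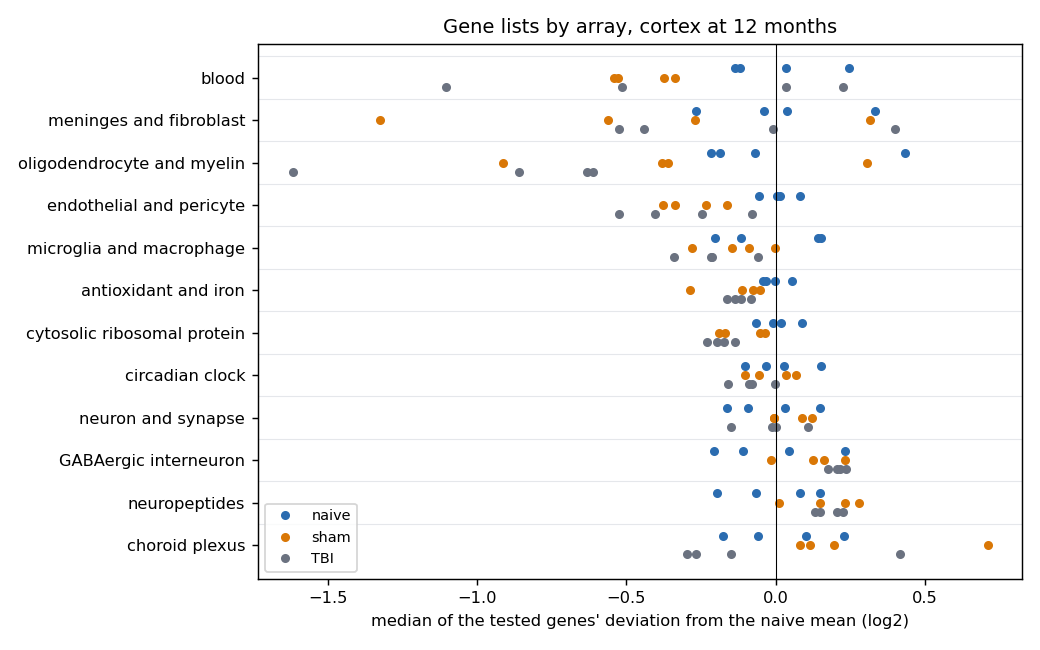
For 12 gene lists, each point is the median over the list's tested genes of their deviation from the naive mean (log2) in 1 array, with naive, sham and TBI arrays in separate rows. The sham points lie wholly below the naive points for the blood, endothelial and pericyte, and antioxidant and iron lists, and overlap them for the other 9.

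Antioxidant and iron genes formed the third and last of the 49 lists whose array medians did not overlap, with -0.04 to 0.06 in naive and -0.29 to -0.05 in sham rats. Among single genes 1111 of 11445 separated the groups, so the separation is not read as particular to these lists. Nfe2l2, the transcription factor NRF2 that drives antioxidant genes, read 5.35, 5.21, 5.38 and 5.28 in naive and 4.76, 4.99, 5.03 and 4.93 in sham rats (1.30-fold lower, adjusted p = 0.0215, 4 of 8 fits). Ftl1, the ferritin light chain that stores iron, read 10.04, 10.21, 10.15 and 9.999 in naive and 9.73, 9.77, 9.85 and 9.75 in sham rats (1.25-fold lower, adjusted p = 0.0215, 4 of 8 fits). All sham rats were below all naive rats in both, and Ftl1 has near-identical copies that its probe may also report. These were the 2 called of 28 genes, 22 of which lay below 0 with a median of -0.12. Targets of NRF2 gave single values that did not pass, such as Nqo1 at -0.24 (adjusted p = 0.187), Hmox1 at -0.26 (adjusted p = 0.206) and Prdx1 at -0.43 (adjusted p = 0.0988). Other genes of the list hardly differed or were higher without passing (limma). These included Gclc at 0.02 (adjusted p = 0.936), Gsr at -0.01 (adjusted p = 0.966) and Cat at 0.11 (adjusted p = 0.690). Cytosolic ribosomal protein genes lay below 0 in 27 of 31 cases (median -0.10), and Rpl7 (1.26-fold lower, -0.33 on the log2 scale and -0.09 after normexp, adjusted p = 0.0262, 3 of 8 fits) and Rplp0 (1.24-fold lower, adjusted p = 0.0418, 1 of 8 fits) passed. Many processed copies of these genes exist, which leaves single probes uncertain. Of 28 tested genes of the respiratory chain 17 lay below 0. Single increases also occurred for Insig2, which restrains sterol synthesis (1.31-fold, adjusted p = 0.0451, 1 of 8 fits), 1 of 25 cholesterol synthesis genes, and for Hnrnpd, which binds AU-rich mRNA (1.39-fold, 0.47 on the log2 scale and 0.22 after normexp, adjusted p = 0.0161, 6 of 8 fits), 1 of 37 spliceosome and RNA binding genes.

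Clock genes supplied calls in opposite directions. The circadian clock is a loop in which CLOCK or NPAS2 pairs with BMAL1 and activates genes through E-box sequences, while PER, CRY and CIART proteins repress that activation, and DBP is an output of the loop. Dbp read 8.89, 9.06, 8.93 and 8.87 in naive and 8.14, 8.20, 8.59 and 8.71 in sham rats (1.44-fold lower, adjusted p = 0.0394, 2 of 8 fits). Ciart read 4.30, 4.51, 4.16 and 4.46 in naive and 3.48, 3.44, 3.90 and 3.96 in sham rats (1.58-fold lower, adjusted p = 0.0394, 3 of 8 fits). Npas2 read 5.58, 5.80, 5.56 and 5.83 in naive and 6.13, 6.20, 5.98 and 5.98 in sham rats (1.30-fold higher, adjusted p = 0.045, 2 of 8 fits). No sham rat overlapped a naive rat in these 3 genes, and sham replicates 1 and 2 were the lowest for both Dbp and Ciart and the highest for Npas2. Bmal1 differed by 0.30 (adjusted p = 0.352), Per1 by -0.17 (adjusted p = 0.585), Per2 by 0.14 (adjusted p = 0.726), Cry1 by -0.31 (adjusted p = 0.169) and Nr1d1 by -0.15 (adjusted p = 0.546). Of 17 tested clock genes 9 lay above and 8 below 0 (median 0.06), and that median turned to -0.11 after normexp. It was also below 0 without the filter on dim probes, with the filter on both groups, and without naive replicate 1, naive replicate 2 or sham replicate 3. The hour of tissue collection is not given in the sources used here.

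The promoters of these 3 genes are shown because E-boxes are the sites through which the clock acts on its targets. Each runs from 250 bases before to 50 bases after the gene's start in the RefSeq annotation of GRCr8 and is written 5′ to 3′ on the gene's strand, with every CACGTG in capitals. This palindromic E-box was the one motif searched, and it occurs in 6.42% of all 33469 promoters of the same length. The Ciart promoter (chr2:186112197-186112496, minus strand) holds 3 copies, which begin 93, 35 and 21 bases before the start. The Dbp promoter (chr1:105312006-105312305, plus strand) and the Npas2 promoter (chr9:48959315-48959614, plus strand) hold 0 within this window.
Ciart: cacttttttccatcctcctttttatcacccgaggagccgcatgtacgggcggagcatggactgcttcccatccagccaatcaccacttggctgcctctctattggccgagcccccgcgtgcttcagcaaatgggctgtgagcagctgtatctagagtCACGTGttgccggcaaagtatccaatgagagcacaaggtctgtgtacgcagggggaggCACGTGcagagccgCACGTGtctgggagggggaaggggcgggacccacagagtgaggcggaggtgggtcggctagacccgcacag
Dbp: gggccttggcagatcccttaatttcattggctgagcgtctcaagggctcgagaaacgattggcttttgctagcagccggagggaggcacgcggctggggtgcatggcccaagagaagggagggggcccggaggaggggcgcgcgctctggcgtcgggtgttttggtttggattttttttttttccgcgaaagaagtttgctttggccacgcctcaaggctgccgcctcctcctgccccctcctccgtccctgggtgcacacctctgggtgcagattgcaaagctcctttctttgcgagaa
Npas2: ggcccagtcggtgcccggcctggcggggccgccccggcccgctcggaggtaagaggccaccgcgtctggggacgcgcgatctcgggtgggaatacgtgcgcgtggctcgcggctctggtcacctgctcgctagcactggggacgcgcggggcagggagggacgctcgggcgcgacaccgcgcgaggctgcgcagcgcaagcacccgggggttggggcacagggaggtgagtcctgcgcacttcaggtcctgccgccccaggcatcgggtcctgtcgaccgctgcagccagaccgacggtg

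Of a selection of 16 genes that the study names, Lif and Lgals2 were too dim to be tested, and Stat3 and S100b were the 2 that passed. P4ha1, a collagen-modifying enzyme, read 5.12, 5.36, 5.21 and 5.17 in naive and 5.47, 5.55, 5.40 and 5.57 in sham rats and separated the groups (0.28 ± 0.07, adjusted p = 0.0529, called in 5 of the 10 alternatives). Il18 differed by 0.43 ± 0.21 (adjusted p = 0.299) and Egr1 by 0.33 ± 0.31 (adjusted p = 0.625), and in both genes the groups overlapped. The values of Drd1 (-0.04), Drd2 (0.08), Fos (-0.01), Hspb1 (-0.02), Fcgr2a (0.07), Il10ra (0.22), Syncrip (-0.06), Ngfr (-0.19) and Creb5 (-0.27) were within 1 SE of 0, and their adjusted p-values lay between 0.717 for Creb5 and 0.995 for Fos. Genes of the glucocorticoid response gave no call in 19 tested members, 15 of which lay below 0. The glucocorticoid target Tsc22d3 read 7.17, 7.52, 7.38 and 7.33 in naive and 6.83, 6.92, 7.10 and 7.06 in sham rats (-0.37 ± 0.10, adjusted p = 0.061, called in 5 of the 10 alternatives). Thrsp, a thyroid hormone responsive gene, differed by -0.56 ± 0.15 (adjusted p = 0.063, called in 4), with all sham below all naive rats.

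Other rats, with naive and sham groups of their own, gave the same comparison at the other intervals. Of the 1098 probes called at 12 months, those tested at 24 hr and 6 months mostly had the opposite sign there: 280 of 966 (29.0%) and 238 of 930 (25.6%) had the sign of 12 months, against 48.4% and 40.4% of all probes tested in both. Most called probes were higher at 12 months, so the share above 0 is the nearer comparison. At 24 hr 25.7% of the probes called higher lay above 0, near the 26.7% of all tested probes. At 6 months 25.6% of them did, against 47.2% of all tested probes. At 3 months 642 of 884 (72.6%) had the sign of 12 months, against 51.5% of all probes tested in both. The value at 2 weeks rested on 1 array. Sham replicate 3 of that set had 93.0% of its probes well above background and a median processed intensity of 1806, against 42.3% to 50.3% and 39.3 to 44.0 in the other sham arrays. With it 159 of 889 (17.9%) had the sign of 12 months, against 45.4% of all probes, and without it, a choice made after seeing the data, 712 of 891 (79.9%), against 52.9%. The median difference of all tested probes at 2 weeks was -0.51 with that array and 0.42 without it, so the sign at 2 weeks was not read further. Sham and naive arrays shared a slide at 24 hr, 2 weeks and 6 months, with naive arrays in row 1 and sham arrays in row 2. At 3 months they lay on different slides, with naive arrays in row 2 and sham arrays in row 1, as at 12 months. The part of the slide and of the row in these signs was not tested. Of the probes called lower, 70.4% of those tested at 24 hr had their sign, a set in which 26.7% of all tested probes lay above 0, and 26.1% had it at 6 months. At 2 weeks it was 84.1% with all arrays and 4.35% without sham replicate 3, with 11.4% and 89.1% of all tested probes above 0. The fits of those intervals with limma called 4581 probes at 24 hr and 87 at 3 months. They called 0 at 6 months, with 1554 probes below an unadjusted p of 0.05, and 0 at 2 weeks, with 11. Without sham replicate 3 the 2 week fit called 28, with 1394.

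The difference between the 12 and 6 month comparisons was itself tested, with 24 arrays in 1 model. It passed for 670 of 25319 probes (2.65%), of which 621 were more positive at 12 months (92.7%, against 75.3% of 882 with the 75th percentile as the centre and 79.2% of 900 in the authors' table). Without a filter on dim probes 1291 passed, and 42.8% of them were more positive at 12 months. Sst (1.04 higher, adjusted p = 0.00381), Stat3 (0.82, adjusted p = 0.0328), Epha4 (0.61, adjusted p = 0.0315) and Dbp (-0.73, adjusted p = 0.00593) were among them, as were Nfe2l2 (-0.52, adjusted p = 0.0451), Ftl1 (-0.44, adjusted p = 0.0299), Mapk12 (-0.80, adjusted p = 0.0289) and Cldn5 (-0.51, adjusted p = 0.0302). At 6 months alone sham minus naive was -0.31 for Sst, -0.19 for Stat3, 0.21 for Dbp and 0.23 for Cldn5. Cox6c-ps1 differed by -0.16 at 6 months, 0.06 at 2 weeks and -0.57 at 24 hr, against 1.41 at 3 months. Rpl17l5 differed by -0.06, -0.01 and -0.15 in that order, against 1.25 at 3 months. Without sham replicate 3 of 2 weeks the values there were 0.00 for Cox6c-ps1 and -0.13 for Rpl17l5. Both genes thus differed by over 1 at 3 and 12 months and by less at 24 hr, 2 weeks and 6 months. Without 1 of the 16 naive and sham arrays the count of 670 ranged from 472, without the 12 month sham replicate 2, to 1003, without the 6 month sham replicate 4.

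The hippocampus at 12 months was the other set of this interval. There 786 of 25281 probes (3.11%) were called, 619 higher and 167 lower in sham rats. Of the cortex calls 1015 of 1070 tested (94.9%) had the same sign, against 65.3% of all probes, and 326 were called there too in the same direction. Its naive and sham arrays lay on different slides as well, with the sham arrays again beside those of TBI rats. As in the cortex, the naive arrays lay in row 2 and the sham arrays in row 1. The methods describe taking both tissues from a brain, and the labels do not tie the arrays of the tissues to single rats, so the fit treated them as separate. Same-numbered naive arrays of cortex and hippocampus deviated together, with correlations of 0.25 to 0.33, each the best with its own number, while those of sham arrays were -0.03 to 0.07. Same-numbered arrays of a group also held the same row and column of their slides in both tissues, so rat and position cannot be told apart. Whether rats were shared between the tissues was not tested, and the 94.9% cannot be taken as a value from separate rats. Ptgir was 0.78 higher (adjusted p = 0.00391), Cnr1 0.67 higher (adjusted p = 0.0395) and Ciart lower, by -0.43 (adjusted p = 0.0357), in the hippocampus, and Cox7c, Cox6c-ps1, Rpl17l5 and Sfswap were 1.92, 1.76, 1.31 and 1.55 higher. Sst at 0.62 (adjusted p = 0.0826), Dbp at -0.43 (adjusted p = 0.0659) and Nfkbia at -0.25 (adjusted p = 0.453) did not pass, and Grm7 stood at 0.00 (adjusted p = 0.995). A test of the difference between cortex and hippocampus called 0 of 26135 probes (0%) with limma, and 2105 had an unadjusted p under 0.05. With the replicate number as a block it also called 0. That block joins naive, sham and TBI arrays of the same number and is not a block of single rats. It therefore cannot deal with rats that the tissues may share.

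**Figure D5:**
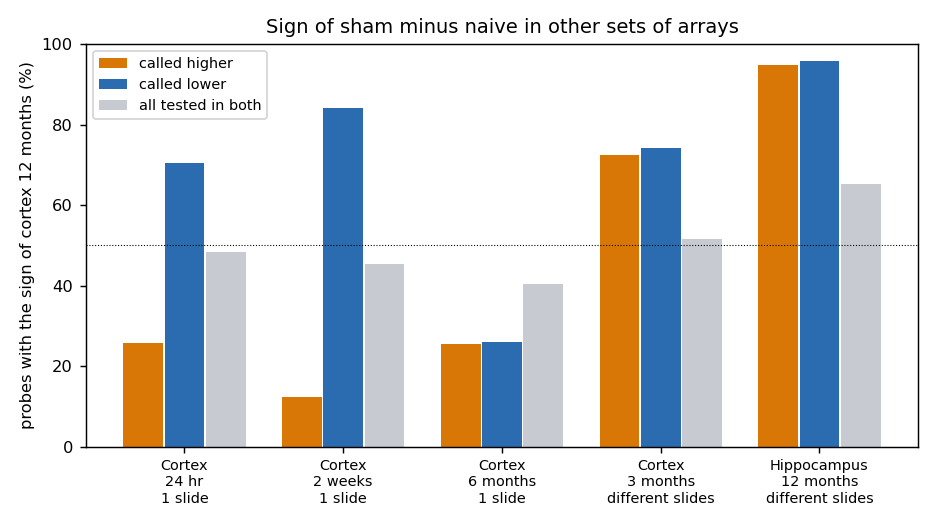
Bars give the percent of the probes called at 12 months in the cortex (higher in orange, lower in blue) and of all probes tested in both sets (grey) whose difference sham minus naive had the same sign in another set of arrays, and the dotted line marks 50%. The called probes lie above the grey bar in both directions at 3 months and in the hippocampus at 12 months, and below it in both directions at 6 months. At 24 hr and 2 weeks the higher probes lie below the grey bar and the lower probes above it, at 70.4% against 48.4% and 84.1% against 45.4%, and the bars of 2 weeks include the sham array that stood apart. At 24 hr the bar of the higher probes (25.7%) is near the 26.7% of all tested probes that lay above 0 there.

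The TBI arrays of the interval, which shared the slide of the sham arrays, are given side by side and were not tested against naive arrays. The median of the probes called higher was 0.61 above the naive mean in sham and 0.53 in TBI rats, and that of the probes called lower was -0.46 and -0.41. These probes, like the genes below, were called by their distance from the same 4 naive arrays. TBI values measured from that baseline lean the same way in advance and are not read as support. Sst read 6.19, 6.26, 6.34 and 6.46 in TBI rats, each above at least 3 of the 4 sham rats. Dlx1 read 4.63, 4.62, 4.77 and 4.53, Grm7 3.00, 2.85, 2.96 and 2.88, and Ptgir 1.23, 1.24, 1.38 and 1.42 in TBI rats, all above the naive range. Nfkbia at 5.23, 5.07, 5.09 and 5.21, S100b at 9.88, 9.84, 9.88 and 9.86, and Nfe2l2 at 4.96, 4.93, 4.80 and 4.99 were all below it. Cox6c-ps1 read 2.61, 2.75, 2.66 and 2.52, within the reach of the sham rats. Ciart, at 3.74, 4.35, 4.15 and 3.92, and Npas2, at 5.93, 5.71, 5.86 and 5.98, overlapped the naive rats. Zfp329 read 2.96, 2.68, 2.20 and 2.93 and was at naive levels in 2 of the 4 TBI rats. In naive rats of 6 months the probes called higher stood 0.21 above those of naive rats of 12 months, and those of sham rats of 6 months 0.13. Naive rats of 24 hr, 3 months and 2 weeks differed from the same level by 0.27, 0.19 and -0.28. The values of these other intervals are measured from the same baseline by which the probes were called. They also lean upward in advance and are not read as support.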

How the data were processed

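RNA from 1 rat was hybridised per 1-colour Agilent array. The authors deposited the scanner output of each array, made with Agilent Feature Extraction, which holds the spot intensity after background subtraction and detrending, and a table of linear intensity values of the whole series. In that table the cortex arrays of 12 months were divided by a single constant each, which lay near the 75th percentile (74.9 to 75.0) although the methods name the median. In the sham hippocampus arrays of 12 months 1 constant accounted for 84.9% to 88.8% of the values, within 0.05 on the log2 scale. The deposited flags (0 or 1) mark spots well above background. Here the processed intensity was averaged over spots of a probe, with outlier spots left out, taken as log2 and centred on the array median of the probes that are not controls. A probe was tested if well above background on all 4 arrays of at least 1 of the groups compared. Sham minus naive was fitted with limma 3.58.1 in R 4.3.3 (data.table, version 1.17.8) on the 12 naive, sham and TBI arrays, with Benjamini-Hochberg adjustment and a threshold of 0.05, after tests on simulated data. Interaction fits used 24 arrays. Labels do not say whether rats of a group were handled together, so p-values measure the spread between these arrays. Genes are named by matching the accession of each probe in the array files to RefSeq transcripts, which gave 1 symbol to 46.3% of 45598 probes. Named genes were the 15 largest differences in each direction among called probes whose groups did not overlap, up to 3 called genes per list and direction (or the smallest p), some genes the study names, and cell type markers. Other genes of the clock, barrier, myelin and antioxidant lists were added for context. Lists count 1 probe per gene, the brightest. The comparison, lists and tests were chosen with earlier results of these data known. Promoter sequences are from RefSeq (GRCr8). Alternatives covered centring, background, filter, replicate block, arrays in the fit, moderation, weights, call rule and each array left out, and, chosen after seeing the data, the 2 week set without sham replicate 3. The number of arrays limits the precision.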

Additional observations from a re-analysis of the deposited data

Results flagged for a closer look

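For 17 of the genes followed, the difference sham minus naive at 12 months differed from that at 6 months in a test of the difference itself (limma, adjusted p under 0.05 over all tested probes). The difference of differences, 12 minus 6 months on the log2 scale, was positive for Sst (1.04), Stat3 (0.823), Epha4 (0.611), Cd8b (1.54), Cox7c (2.18), Cox6c-ps1 (1.9), Rpl17l5 (1.39), Sfswap (2.13), Akr1b10 (3.27), Ptges3l1 (1.86), Or4b1 (1.89) and Or4f61b (1.62). It was negative for Dbp (-0.732), Mapk12 (-0.797), Nfe2l2 (-0.522), Cldn5 (-0.512) and Ftl1 (-0.437). The probes of Akr1b10, Ptges3l1, Or4b1, Or4f61b and Cd8b were well above background on no naive array of 12 months, and those of Cox7c and Sfswap on 1. All 7 were too dim to be tested at 6 months alone, so their sizes are not exact. Naive and sham arrays lay on different slides at 12 months and on 1 slide at 6 months, with the slide rows of the groups exchanged. Interval, slide and row cannot be told apart in these values.

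In 5 of 156 gene and group values examined, 1 array stood far from the other 3, which chance gives in about 1 of 20 groups. The gap to the nearest array, as a share of the group's range, was 0.924 for Ltc4s, 0.839 for St3gal5 and 0.832 for Zfp329, each in naive replicate 2. It was 0.867 for Ttr and 0.87 for Stat3 in sham replicate 1.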

How the results depend on the processing

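Without a filter on dim probes 7682 probes, 62 list genes and 1291 probes of the 12 minus 6 month difference were called, and the filter on both groups left 16 of the named genes and gave 1 probe for cortex minus hippocampus. With the replicate block 799 probes and 13 list genes were called. The numbers do not pair naive with sham rats: same-numbered cortex naive and sham arrays deviated with correlations of -0.13 to -0.02, and none correlated best with its own number. Between the tissues, same-numbered naive arrays correlated at 0.25 to 0.33, where rat and slide position cannot be told apart. The fit on sham and naive arrays alone gave 13 list genes, an adjusted p under 0.01 left 437 probes, and normexp, run on median instead of mean signals, gave 1036 probes for 12 minus 6 months. Leaving out 1 array gave 599 to 1180 called probes, 15 to 21 of 30 named genes, 8 to 29 list genes (28 with all arrays), 472 to 1003 probes for 12 minus 6 months, and 0 to 1 for cortex minus hippocampus, the 1 without cortex sham replicate 3. No called gene changed sign. Genes that did not pass and changed sign were Drd2 (-0.0097) and Fos (0.0074) after normexp, Fos with array weights (0.10), and, with 1 array left out, Creb5 (-0.52 to 0.0058), Fcgr2a (-0.022 to 0.13), Fos (-0.32 to 0.27), Hspb1 (-0.088 to 0.055), Drd1 (-0.23 to 0.23), Syncrip (-0.14 to 0.0042), Drd2 (-0.068 to 0.15) and Ngfr (-0.37 to 0.016). Apart from the filter, block and left-out arrays, whose own construction changes what is tested, the cause was not tested. The slide as a block was not run, since no slide holds both groups. Dim probes have the least margin over background.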
